A study of Mus musculus with 7 samples.

Results

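The telomeric flank is the stretch of mouse chromosome 1 at chr1:78500001-81000000 (build mm9), the telomeric end of a 10 Mb capture Hi-C region around Epha4, which encodes an ephrin receptor tyrosine kinase. It was taken as all pairs of 10 kb bins with both bins in this stretch, which gave 250 bins and 31375 bin pairs, of 500500 pairs of the 1000 bins in the whole region. All of it lies outside the inverted segments, which end before 76 Mb. Capture Hi-C counts ligation products between pairs of loci inside a region that was enriched with probes, and a contact value here is one such balanced count.

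There were 7 libraries with 1 library per condition: embryonic stem cells (ESCs) carrying the inversion Inv1, limb buds carrying Inv1, Inv2, Inv3, Inv4 or Inv1 with a deletion labelled DelCTCF (Inv1DelCTCF), and WT limb buds. The inversions were made with CRISPR/Cas9 next to Epha4. The limb buds were whole fore- and hindlimb buds of stage E11.5, titled Distal, and 10 embryos were pooled for each condition, so a map averages over all cell types of the bud. The ESCs were 1 mutant line in culture, and WT ESCs were not analysed here, so the stem cell map is set against limb buds of the same inversion. The cell type entry of the labels reads G4 ESC for every library, limb buds included, so the ESC map was recognised by its title. Every difference below is a difference between 2 libraries without a replicate check.

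Mammalian chromosomes are folded into domains whose loci contact each other more often than they contact the neighbouring domain. In the loop extrusion model, cohesin reels in chromatin until it meets CTCF bound at a border, which leaves a focal contact between a domain's 2 ends and a stripe where 1 anchor contacts a long run of sequence on 1 side. A flank that no inversion touches shows how far such features hold between limb bud libraries and how far they differ in another cell type.

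The flank held 712088 recovered read pairs in Inv1 ESCs and, in limb buds, 652625 for Inv1, 717880 for Inv2, 632123 for Inv3, 560440 for Inv4, 695452 for Inv1DelCTCF and 895746 for WT. The Inv2, Inv3 and Inv4 maps hold negative values, of which 72.7 to 73.3% equal a fixed negative multiple of the WT value. They were therefore read as maps from which a share of the WT map had been subtracted, a step that was inferred from the values and is not described in the labels. Their values are noisier, and several results are also given with that share added back. The share made up 49.1 to 49.4% of the median bin sum once added back. Adding it back therefore also draws a map toward WT. The bin grid of the Inv1DelCTCF map did not line up with the others in the flank. Its coverage per bin correlated with that of WT at r = 0.44 over 250 bins on the same grid and at r = 0.67 with the grid moved by 4 kb, whereas the other 5 mutant maps had r = 0.9956 to 0.9967 on the same grid, and over the 250 bins at the centromeric end of the captured region Inv1DelCTCF itself had r = 0.9946. Positions in Inv1DelCTCF are therefore good to about 1 bin. Low coverage by itself touched few bins: 5 to 7 bins per map had under 25% of the median coverage, and 1 or 2 bins per map were left out.

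The WT flank was divided by 4 borders, in the bins that start at 78.71, 79.68, 80.17 and 80.50 Mb, and a further border at 78.47 Mb lay just outside it. A border was a local minimum of insulation, the log2 of mean contact over its distance expectation in a 200 kb square across a bin, relative to the map's mean, with a depth of at least 0.2. All 4 WT borders had a counterpart within 30 kb in each of the 5 mutant limb bud libraries, while 2 of 4 had one in Inv1 ESCs. This contrast depended on the size of the square. With 100 kb squares, 3 of 5 WT borders were found in Inv1 ESCs and in Inv2 limb buds. Inv3 limb buds had 4 of them, and Inv1, Inv4 and Inv1DelCTCF limb buds had 5. With 300 kb squares, 2 of 4 were found in Inv1 ESCs, 3 in Inv1, Inv2, Inv3 and Inv4 limb buds and 4 in Inv1DelCTCF. The outer border at 78.47 Mb was at 78.47 Mb in Inv1 ESCs and at 78.46 or 78.47 Mb in every limb bud library.

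The border at 78.71 Mb was the first inside the flank. Its insulation was -0.30 in Inv1 ESCs and, in limb buds, -0.70 for Inv1, -0.71 for Inv2, -0.79 for Inv3, -0.72 for Inv4, -0.73 for Inv1DelCTCF and -0.70 for WT, with counting standard errors of 0.017 to 0.051. The 6 limb bud libraries lay close together and the ESC map stood apart with more contact across the border. The difference of Inv1 ESCs from Inv1 limb buds was 0.40 (95% counting interval 0.34 to 0.46), against a largest difference of 0.088 between any mutant limb bud library and WT. In Inv1 ESCs the minimum itself lay at 78.74 Mb with a depth of 0.44, against depths of 0.44 to 0.58 in the limb bud libraries. With 300 kb squares no border was called there in Inv1 ESCs, while every limb bud map kept one at most 20 kb centromeric of 78.71 Mb. With 100 kb squares the border was at 78.71 Mb in both Inv1 ESCs (depth 0.71) and WT limb buds (depth 1.04). On read pairs without balancing no border was called there in Inv1 ESCs, while every limb bud map had one at 78.72 Mb. The border call in Inv1 ESCs thus depends on the size of the square and on balancing.

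At 79.68 Mb the insulation was -0.41 in Inv1 ESCs and, in limb buds, -0.79 for Inv1, -0.71 for Inv2, -0.85 for Inv3, -0.68 for Inv4, -0.79 for Inv1DelCTCF and -0.75 for WT. The ESC border was called at 79.78 Mb instead, which is 100 kb from the WT border. The limb bud maps did not have a sharp minimum in this interval but a trough about as wide as that gap: at 79.77 Mb the values were -0.55 in Inv1 ESCs and, in limb buds, still -0.72 for Inv1, -0.68 for Inv2, -0.63 for Inv3, -0.59 for Inv4, -0.66 for Inv1DelCTCF and -0.66 for WT. The libraries thus differed most at the centromeric edge of the trough and less at its telomeric edge. With 100 kb squares the border was at 79.79 Mb in Inv1 ESCs and at 79.76 Mb in WT, which counted as the same border. On read pairs without balancing it was at 79.66 Mb in both. The gap between the called positions therefore depends on the size of the square and on balancing.

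The order was the other way round at 80.17 Mb, where the ESC map was the more insulated. Its insulation was -0.74 in Inv1 ESCs and, in limb buds, -0.56 for Inv1, -0.55 for Inv2, -0.62 for Inv3, -0.44 for Inv4, -0.57 for Inv1DelCTCF and -0.49 for WT. The difference of Inv1 ESCs from Inv1 limb buds was -0.18 (counting interval -0.26 to -0.11). It was larger than the largest limb bud difference from WT, 0.13. The minimum lay at 80.15 Mb in Inv1 ESCs and between 80.14 and 80.18 Mb in the limb bud libraries.

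The shallowest border of the limb bud maps was that at 80.50 Mb, with a depth of 0.31 to 0.44. At this bin the insulation was -0.086 in Inv1 ESCs and -0.068 in Inv1 limb buds, a difference of -0.017 with a counting interval of -0.067 to 0.032. In Inv1 ESCs the minimum was instead at 80.44 Mb with a depth of 0.56. There the insulation was -0.23 in Inv1 ESCs and 0.070 in Inv1 limb buds, and no limb bud library was below 0 at this bin. With 300 kb squares Inv1 ESCs and WT both had this border at 80.53 Mb, while no border was called there in Inv1, Inv3 and Inv4 limb buds. With 100 kb squares it was at 80.40 Mb in Inv1 ESCs, 80.50 Mb in Inv1 limb buds and 80.51 Mb in WT limb buds. Whether the positions differ therefore depends on the size of the square here too.

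**Figure D1:**
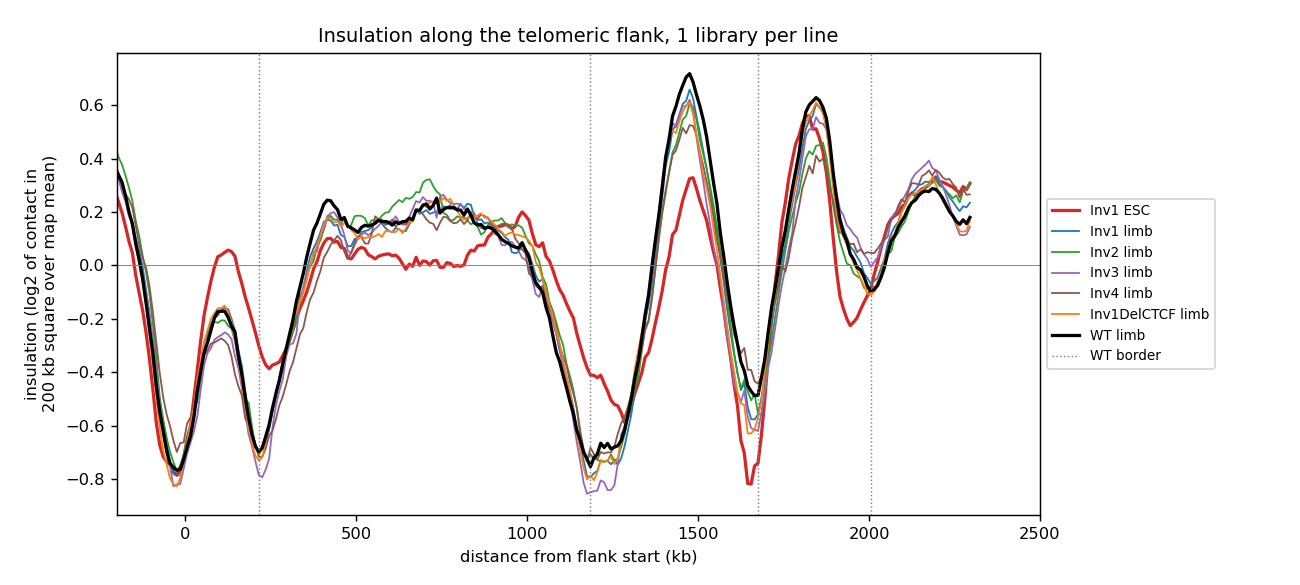
Insulation (log2, y axis) against distance from the start of the flank (kb, x axis) in 7 libraries, 1 line each, with dotted lines at the 4 WT borders. The limb bud lines run together, while the red line of Inv1 ESCs is higher at the first 2 borders and lower at the third.

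Along the whole flank the insulation tracks of any 2 limb bud libraries correlated at r = 0.964 to 0.994 over 230 bins, and those of Inv1 ESCs and a limb bud library at r = 0.813 to 0.854. Neighbouring bins share most of their square, so these r values describe the curves and carry no test. The median absolute difference was 0.125 between Inv1 ESCs and Inv1 limb buds, and 0.035 between Inv1 and WT limb buds.

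The borders cut the flank into 5 stretches, called A to E here: A from the start of the flank to 78.71 Mb (210 kb of a domain that begins at 78.47 Mb), B from 78.72 to 79.68 Mb (960 kb), C from 79.69 to 80.17 Mb (480 kb), D from 80.18 to 80.50 Mb (320 kb) and E from 80.51 Mb to the end of the captured region at 81 Mb (490 kb). How far they stood apart was measured as the log2 ratio of contact within domains over contact between neighbouring domains, at matched distances of 50 to 300 kb. It was 0.48 ± 0.010 (counting standard error) in Inv1 ESCs and, in limb buds, 0.68 ± 0.012 for Inv1, 0.68 ± 0.024 for Inv2, 0.70 ± 0.025 for Inv3, 0.61 ± 0.025 for Inv4, 0.68 ± 0.011 for Inv1DelCTCF and 0.67 ± 0.010 for WT. Domains of the WT borders were thus set apart in all 7 maps, and least in Inv1 ESCs. The borders were defined on WT, which puts a map whose borders lie elsewhere at a disadvantage in this measure.

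Among neighbouring domains, Inv1 ESCs and Inv1 limb buds differed most in the contact of B with C, across the border at 79.68 Mb. Mean contact over its distance expectation was 1.34 ± 0.011 in Inv1 ESCs and, in limb buds, 1.05 ± 0.0085 for Inv1, 1.06 ± 0.018 for Inv2, 1.07 ± 0.019 for Inv3, 1.05 ± 0.018 for Inv4, 1.02 ± 0.0080 for Inv1DelCTCF and 1.01 ± 0.0086 for WT. Contact inside C showed the opposite order, with 0.994 ± 0.0085 in Inv1 ESCs and, in limb buds, 1.19 ± 0.0088 for Inv1, 1.18 ± 0.021 for Inv2, 1.19 ± 0.022 for Inv3, 1.14 ± 0.021 for Inv4, 1.21 ± 0.0086 for Inv1DelCTCF and 1.25 ± 0.0088 for WT. C was therefore joined more to B, and less to itself, in the ESC map than in any of the 6 limb bud maps.

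B also differed in its other contacts. Contact inside B was 1.31 ± 0.0067 in Inv1 ESCs and 1.44 ± 0.0079 in Inv1 limb buds, with 1.39 to 1.48 over the 6 limb bud libraries. Contact of B with D was 0.945 ± 0.012 in Inv1 ESCs and 1.11 ± 0.014 in Inv1 limb buds (1.09 to 1.19 over the limb bud libraries). Contact of B with E was 1.32 ± 0.016 in Inv1 ESCs and 1.56 ± 0.019 in Inv1 limb buds (1.46 to 1.56). In each of these 3 pairs the ESC map lay below every limb bud map, except that with the distance expectation taken from the flank alone B with E was 0.879 in Inv1 ESCs and 0.877 to 0.972 over the limb bud libraries.

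Contact of A over long distances depended on the distance expectation, so it is given with that of the whole map and that of the flank alone. A with C, which lie over 900 kb apart, had 1.96 ± 0.031 in Inv1 ESCs and 1.98 ± 0.027 in Inv1 limb buds, which do not differ beyond their counting error (1.40 and 1.38 with the expectation of the flank). A with D had 2.05 ± 0.042 in Inv1 ESCs and 1.88 ± 0.041 in Inv1 limb buds, against 1.79 to 2.0 over the limb bud libraries. With the expectation of the flank it was 1.26 in Inv1 ESCs and 1.05 in Inv1 limb buds (1.04 to 1.17). A with E had 1.37 ± 0.037 in Inv1 ESCs and 1.78 ± 0.044 in Inv1 limb buds (1.58 to 1.87), a difference of -0.38 on the log2 scale (counting interval -0.48 to -0.28). With the expectation of the flank this difference was gone, with 0.969 in Inv1 ESCs and 0.953 in Inv1 limb buds, and 0.923 to 1.02 over the limb bud libraries.

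Of the 15 domain pairs, 13 differed between Inv1 ESCs and Inv1 limb buds by more than the counting interval, 5 higher and 8 lower in the ESCs. Counting error alone understates the spread between libraries, since 8 of 15 pairs also passed it between Inv1 and WT limb buds, and 7 did so for Inv1DelCTCF against WT. The counts were 11, 10 and 11 for Inv2, Inv3 and Inv4 against WT, which may be too high. These maps hold subtracted WT values, while the interval treats them as independent of WT. The median size of the 15 differences was 0.118 (log2) for Inv1 ESCs against Inv1 limb buds, 0.049 for Inv1 against WT limb buds and 0.125 for Inv4 against WT, the highest of the 5 mutant limb bud libraries. Inv1 ESCs lay outside the range of the 6 limb bud libraries in 11 of 15 pairs, or in 14 with the WT share added back. In 7 pairs they differed from Inv1 limb buds by more than any mutant limb bud library differed from WT. Those 7 were A with E, B with B, C, D and E, C with itself and C with D. A with E was among them only under the main setting and without low-coverage bins. With the WT share added back the largest limb bud difference from WT in that pair was 0.41, against 0.38 for Inv1 ESCs from Inv1 limb buds. The expectation of the flank, read pairs without balancing, the WT share added back and the removal of low-coverage bins gave 9, 8, 8 and 7 such pairs, and B with C, B with D and C with itself were among them under each of these settings.

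**Figure D2:**
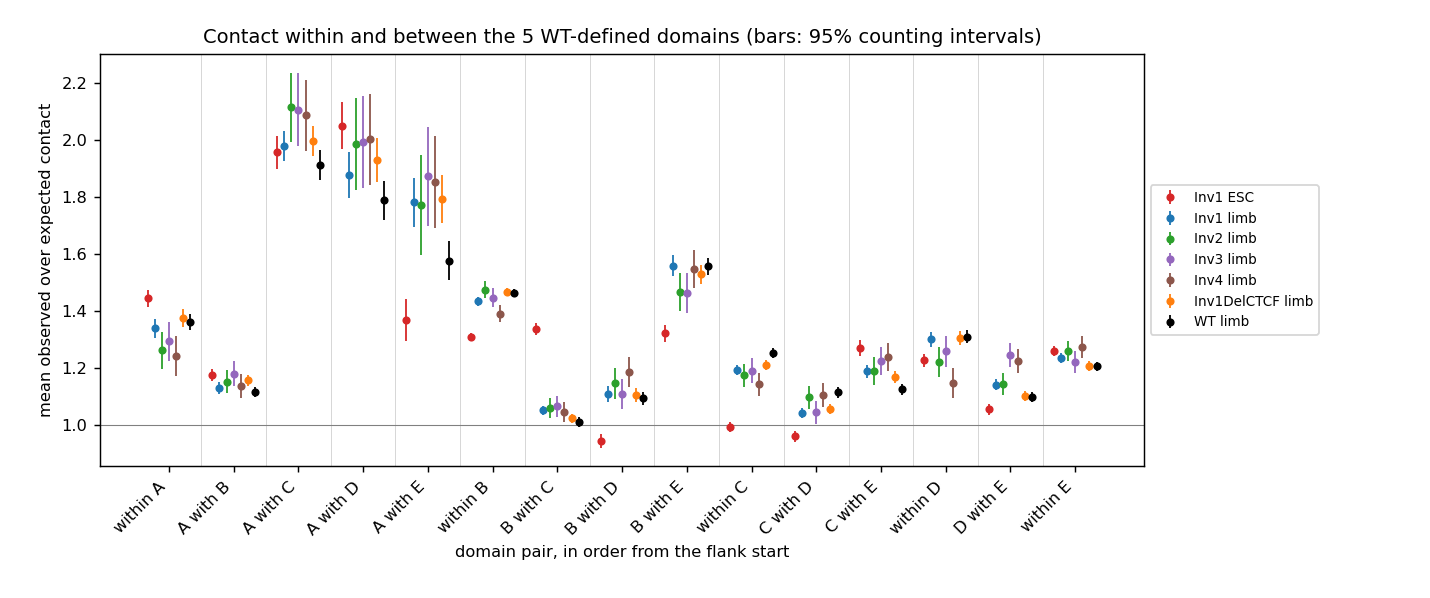
Mean observed over expected contact (expectation of the whole map, y axis) of bin pairs 50 kb or more apart for each of the 15 pairs of domains A to E (x axis), with 1 point per library and 95% counting intervals. Inv1 ESCs (red) lie above the limb bud libraries within A and for A with D, B with C and C with E. They lie below them within B, within C and for A with E, B with D, B with E, C with D and D with E.

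**Figure D3:**
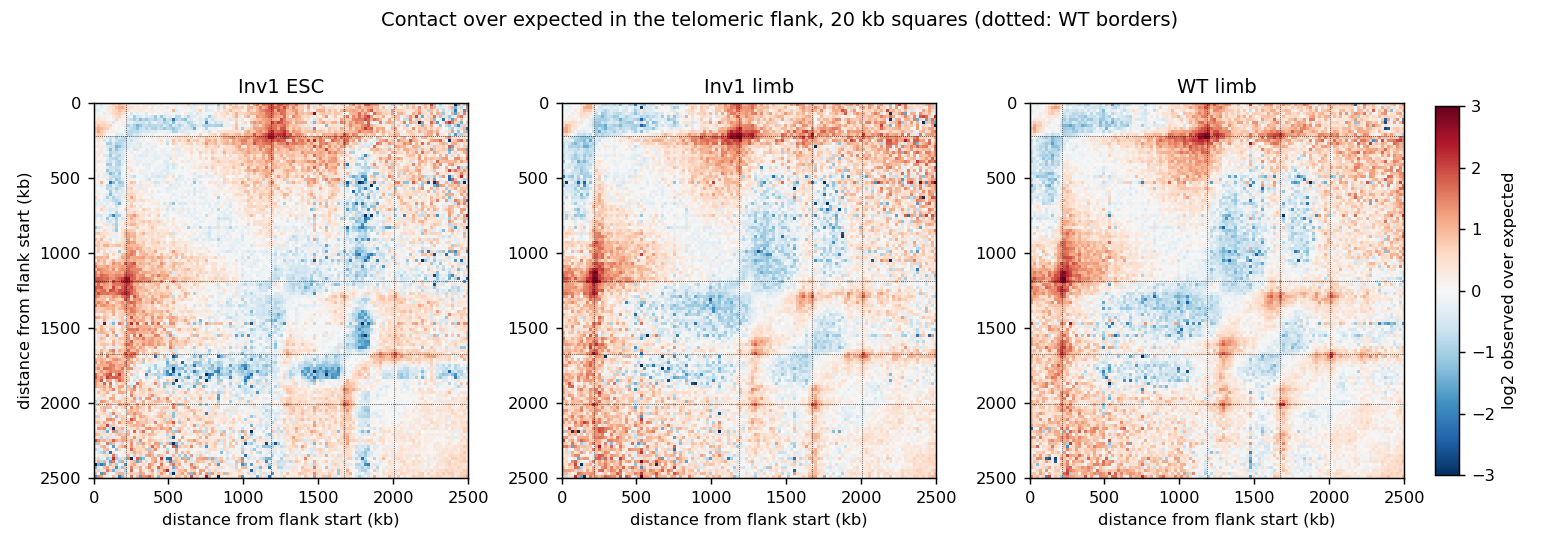
Contact over its distance expectation (log2 colour scale) for pairs of 20 kb squares of the flank in Inv1 ESCs, Inv1 limb buds and WT limb buds, both axes in kb from the start of the flank, with dotted lines at the WT borders. The same stripe leaves the first border in all 3 maps, and in Inv1 ESCs a blue band near 1800 kb crosses the map that is weaker in the limb buds.

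A stripe was scored as the log2 contact of a 3-bin anchor with 100 to 1500 kb on 1 side, over that of the bins 30 to 80 kb away from it on either side. The 4 highest anchors of WT toward the telomere were at 80.18 Mb (0.69 ± 0.033), 78.72 Mb (0.59 ± 0.025), 78.52 Mb (0.43 ± 0.040) and 79.78 Mb (0.43 ± 0.025). Because the captured region ends at 81 Mb, the score reached only to 730 kb at 80.18 Mb and to 1130 kb at 79.78 Mb. Over 100 to 600 kb, which all 4 cover, the WT scores were 0.71, 0.40, 0.59 and 0.46 in the same order. Those toward the centromere were at 78.66 Mb (0.39 ± 0.031), 79.67 Mb (0.35 ± 0.025), 80.11 Mb (0.27 ± 0.031) and 80.51 Mb (0.23 ± 0.030). The anchor at 78.66 Mb stood out only from its near surroundings: against all bins at the same distance it scored -0.54 in Inv1 ESCs and -0.52 to -0.43 in the limb bud libraries. Over all flank bins of WT the 95th percentile of the score was 0.42 toward the telomere and 0.23 toward the centromere. Of the 8 anchors, 4 lay 10 kb from a WT border (78.72, 79.67, 80.18 and 80.51 Mb), and the other 4 lay 50 to 100 kb from one.

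The anchor at 78.72 Mb lies directly behind the first border and its stripe runs along B. Its score was 0.47 ± 0.029 in Inv1 ESCs and, in limb buds, 0.64 ± 0.026 for Inv1, 0.65 ± 0.053 for Inv2, 0.75 ± 0.051 for Inv3, 0.52 ± 0.054 for Inv4, 0.68 ± 0.026 for Inv1DelCTCF and 0.59 ± 0.025 for WT. All 7 maps had the stripe, Inv1 ESCs had the lowest score and Inv4 limb buds the next. The difference of Inv1 ESCs from Inv1 limb buds was -0.17 (counting interval -0.25 to -0.094), close to the 0.15 by which Inv3 limb buds differed from WT. With the WT share added back the Inv3 score was 0.68 ± 0.026, nearer to the 0.59 of WT. On the other side, toward the centromere, the same anchor scored -0.24 in Inv1 ESCs and -0.46 to -0.28 in the limb bud libraries, so the stripe had 1 direction in every map.

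The stripe was not even along its length. Between 310 and 600 kb the anchor had 1.27-fold the contact of its surroundings in Inv1 ESCs, 1.32-fold in Inv1 and 1.33-fold in WT limb buds, which do not differ beyond counting error. Between 610 and 900 kb it had 1.35-fold in Inv1 ESCs, 1.65-fold in Inv1 and 1.51-fold in WT limb buds. Between 910 and 1100 kb, where it meets the border at 79.68 Mb, it had 1.63-fold in Inv1 ESCs, 1.97-fold in Inv1 and 1.90-fold in WT limb buds, the highest of the bands in these 3 maps. Beyond that border, at 1110 to 1500 kb, the stripe went on with 1.30-fold in Inv1 ESCs, 1.37-fold in Inv1 and 1.39-fold in WT limb buds.

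The approach to the peak was also read in finer steps. The 30 kb step at 910 kb from the anchor had 3.74 ± 0.26 over expected in Inv1 ESCs, 6.74 ± 0.36 in Inv1 and 6.53 ± 0.30 in WT limb buds. The peak at 940 kb had 6.40 ± 0.34 in Inv1 ESCs, 7.97 ± 0.40 in Inv1 and 8.24 ± 0.35 in WT limb buds. Past the peak, at 1030 kb, the values were 4.79 ± 0.35 in Inv1 ESCs, 4.58 ± 0.35 in Inv1 and 3.90 ± 0.26 in WT limb buds, with overlapping intervals in both Inv1 maps.

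**Figure D4:**
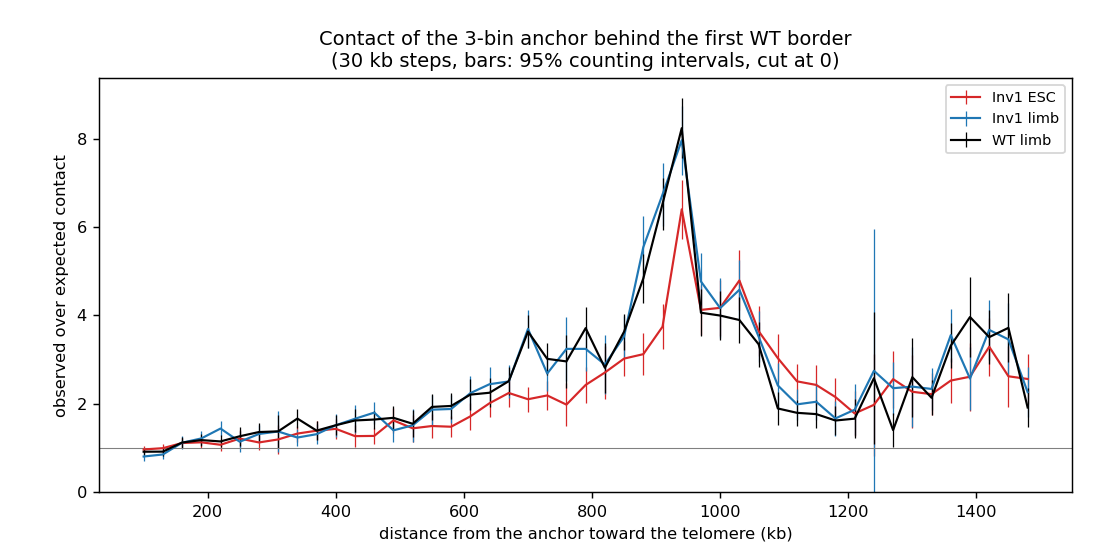
Observed over expected contact (y axis) of the 3-bin anchor behind the first WT border against distance toward the telomere (kb, x axis) in 30 kb steps, with 95% counting intervals cut at 0, for Inv1 ESCs, Inv1 limb buds and WT limb buds. The 3 lines share a peak at 940 kb, and Inv1 ESCs are lower on the approach to it.

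The other stripes did not all order the libraries in the same way. The strongest, from 80.18 Mb toward the telomere, scored 0.68 ± 0.033 in Inv1 ESCs and, in limb buds, 0.66 ± 0.037 for Inv1, 0.63 ± 0.076 for Inv2, 0.82 ± 0.070 for Inv3, 0.59 ± 0.078 for Inv4, 0.72 ± 0.033 for Inv1DelCTCF and 0.69 ± 0.033 for WT. Here the ESC value lay among the limb bud values. The stripe from 79.78 Mb scored 0.26 ± 0.033 in Inv1 ESCs, below the limb bud range of 0.39 to 0.54, and 0.43 ± 0.030 in Inv1 limb buds. That from 78.66 Mb toward the centromere was also lowest in Inv1 ESCs. It scored 0.22 ± 0.035 there and 0.31 ± 0.035 in Inv1 limb buds, with 0.30 to 0.48 over the limb bud libraries. The stripe from 78.52 Mb was the only one of the 8 that was highest in Inv1 ESCs, with 0.50 ± 0.035 in Inv1 ESCs and 0.40 ± 0.035 in Inv1 limb buds, although Inv2 limb buds reached 0.498. Between Inv1 ESCs and Inv1 limb buds 4 of the 8 scores differed by more than the counting interval, 1 higher and 3 lower in the ESCs. Between mutant and WT limb buds 0, 0, 1, 0 and 2 of 8 did so in Inv1, Inv2, Inv3, Inv4 and Inv1DelCTCF.

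The 4 highest anchors on each side in Inv1 ESCs were at 80.18, 78.52, 78.73 and 79.79 Mb toward the telomere and at 79.68, 80.11, 78.67 and 80.36 Mb toward the centromere. Of these 8, 7 lay within 10 kb of a WT anchor. The exception was 80.36 Mb, which scored 0.23 ± 0.057 in Inv1 ESCs, -0.070 ± 0.062 in Inv1 and between -0.07 and 0.075 in all 6 limb bud libraries. Against all bins at the same distance it scored 0.052 in Inv1 ESCs, inside the range of 0.0041 to 0.21 over the limb bud libraries, so it stood out in the ESC map only from its near surroundings. Its middle bin had 25.5% of the median coverage in Inv1 ESCs and 25.6% in Inv1 limb buds, just above the 25% mark for low coverage.

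**Figure D5:**
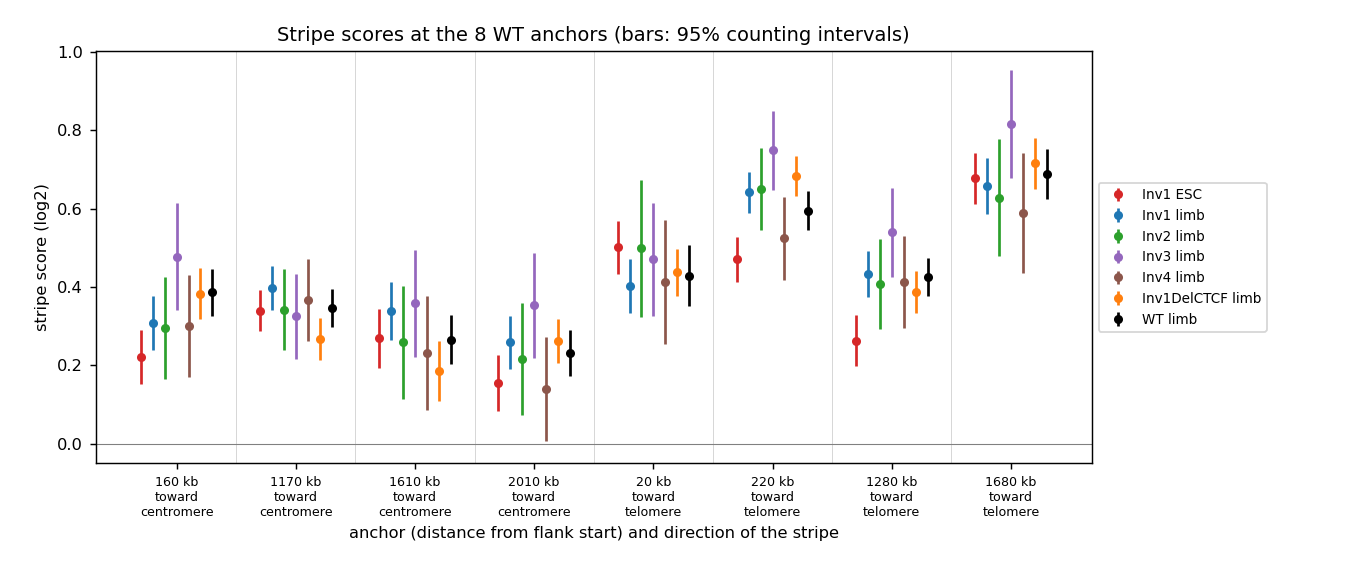
Stripe score (log2, y axis) of the 8 anchors chosen in WT, named by their distance from the start of the flank and the direction of the stripe (x axis), with 1 point per library and 95% counting intervals. The stripe scores of the anchors at 220 and 1280 kb toward the telomere and at 160 kb toward the centromere are lowest in Inv1 ESCs. At 1680 kb Inv1 ESCs lie among the limb bud libraries.

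Focal contacts were sought as pairs of 30 kb blocks 200 to 2000 kb apart that stood above the ring around them. Among the 5 highest of WT, 3 rested on over 150 read pairs in every library. The block at 80.17 to 80.20 Mb with 80.49 to 80.52 Mb, which joins the 2 ends of D, had 2.24 ± 0.12 times the contact of its ring in Inv1 ESCs and, in limb buds, 2.66 ± 0.15 for Inv1, 2.13 ± 0.32 for Inv2, 2.65 ± 0.32 for Inv3, 2.18 ± 0.33 for Inv4, 2.92 ± 0.14 for Inv1DelCTCF and 3.10 ± 0.15 for WT. It was present in all 7 maps. The ESC value lay within the limb bud range, but only the noisier Inv2 and Inv4 maps were below it.

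The pair chr1:78700001-78730000 with chr1:79660001-79690000 joins the 2 ends of B. It had 2.12 ± 0.12 times its ring in Inv1 ESCs and, in limb buds, 2.34 ± 0.12 for Inv1, 2.60 ± 0.26 for Inv2, 2.90 ± 0.26 for Inv3, 2.47 ± 0.25 for Inv4, 2.30 ± 0.12 for Inv1DelCTCF and 2.41 ± 0.11 for WT. Its contact over the distance expectation was 6.24 ± 0.33 in Inv1 ESCs and 8.14 to 10.49 in the limb bud libraries. The third pair, 79.77 to 79.80 Mb with 80.50 to 80.53 Mb, links the anchor at 79.78 Mb over C and D to the border at 80.50 Mb. It had 1.88 ± 0.16 times its ring in Inv1 ESCs, 2.16 ± 0.17 in Inv1 and 2.2 ± 0.14 in WT limb buds, and the ESC value lay within the limb bud range of 1.41 to 2.2. Only the noisier Inv2, Inv3 and Inv4 maps were below the ESC value.

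Of the other pairs ranked among the 5 highest, 78.77 to 78.80 Mb with 79.96 to 79.99 Mb and 79.45 to 79.48 Mb with 79.94 to 79.97 Mb in WT rested on 40 and 59 read pairs in WT, had ratios of 2.47 ± 1.08 and 2.47 ± 0.65 there, and both include the bin at 79.96 Mb, which had 6.36% of the median coverage in WT. In Inv1 ESCs the same holds for 78.56 to 78.59 Mb with 79.96 to 79.99 Mb (35 read pairs) and 79.39 to 79.42 Mb with 79.94 to 79.97 Mb (75 read pairs). The pair 79.00 to 79.03 Mb with 80.10 to 80.13 Mb had 2.5 ± 0.35 times its ring in Inv1 ESCs on 65 read pairs and 1.03 ± 0.24 in Inv1 limb buds on 25, the lowest limb bud value, while the highest was 2.0 ± 0.57 in Inv3. The fifth ESC pair, chr1:78700001-78730000 with chr1:79670001-79700000, was that of the ends of B again, with 2.15 ± 0.12 in Inv1 ESCs and 2.35 ± 0.12 in Inv1 limb buds.

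To see where in the flank the ESC map differed, contact was averaged in 50 kb squares 50 to 2000 kb apart. Of 1180 squares, 16 passed 1.5-fold higher and 11 passed 1.5-fold lower in Inv1 ESCs than in Inv1 limb buds. Over the 5425 squares of the region that lie outside the inverted segments and their margins, 2.36% were higher and 1.92% lower by this fold, so the flank held a smaller share of such squares than the region. In limb buds against WT, 4 squares passed 1.5-fold in either direction for Inv1 (region 0.276%), 56 for Inv2 (4.17%), 51 for Inv3 (4.42%), 49 for Inv4 (3.5%) and 1 for Inv1DelCTCF (0.129%). The counts of Inv2, Inv3 and Inv4 belong to the noisier subtracted maps. With the WT share added back 0.254%, 0.424% and 0.339% of flank squares passed. Adding it back lowers both the noise and any true difference from WT, and these were not told apart. Without 12 low-coverage bins the counts in Inv1 ESCs against Inv1 limb buds were 14 higher and 7 lower of 1163 squares, and none passed in Inv1 or Inv1DelCTCF against WT. With the expectation of the flank alone 8 squares were higher and 4 lower in Inv1 ESCs.

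The best-measured of the squares with the largest change was chr1:78700001-78750000 with chr1:79600001-79650000, which covers the anchor at 78.72 Mb and the inner end of B. It had 3.36 ± 0.15 over expected in Inv1 ESCs on 555 read pairs, 5.92 ± 0.21 in Inv1 limb buds on 865 read pairs, and 5.01 to 5.92 over the limb bud libraries. The other squares with the largest decrease were 79.00 to 79.05 Mb with 80.95 to 81, 80.80 to 80.85 and 80.55 to 80.60 Mb, and chr1:78700001-78750000 with 80.65 to 80.70 Mb. They held 17 to 41 read pairs in Inv1 ESCs and 39 to 75 in Inv1 limb buds, and 3 of these 4 include the bin at 79.03 Mb, which had 7.41% of the median coverage in Inv1 ESCs and 7.15% in Inv1 limb buds.

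The 5 squares with the largest increase all joined B to the telomeric part of C or to the border behind it. The first was 78.75 to 78.80 Mb with 80 to 80.05 Mb, with 2.67 ± 0.40 in Inv1 ESCs and 1.03 ± 0.15 in Inv1 limb buds, above the limb bud range that ended at 1.74. The next were 79.15 to 79.20 Mb with 80 to 80.05 Mb, 79.30 to 79.35 Mb with 79.95 to 80 Mb, 78.95 to 79.00 Mb with 79.90 to 79.95 Mb and 78.75 to 78.80 Mb with 80.15 to 80.20 Mb. These squares had 1.42 to 2.73 over expected in Inv1 ESCs and 0.589 to 1.49 in Inv1 limb buds. Of the 5, 3 include the bin at 79.96 or 80.04 Mb, with 5.73% and 13.3% of the median coverage in Inv1 ESCs and 5.54% and 13.7% in Inv1 limb buds, and the second was not outside the limb bud range, since Inv2 limb buds had 1.56 ± 0.40 beside 1.51 ± 0.17 in Inv1 ESCs.

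A band inside D also stood out in the ESC map. It was picked after its values were seen, as the stretch 80.25 to 80.35 Mb, so its values are a description. Its contact with C was 0.617 ± 0.011 in Inv1 ESCs and 0.907 ± 0.013 in Inv1 limb buds, with 0.893 to 1.00 over the limb bud libraries. With B it had 0.681 ± 0.016 in Inv1 ESCs and 0.907 ± 0.020 in Inv1 limb buds, and with E 0.754 ± 0.013 in Inv1 ESCs and 1.05 ± 0.016 in Inv1 limb buds. Contact with A was the opposite, at 2.61 ± 0.077 in Inv1 ESCs and 2.02 ± 0.068 in Inv1 limb buds (1.90 to 2.11 over the limb bud libraries). With the expectation of the flank the contact with A was 1.58 in Inv1 ESCs and 1.15 in Inv1 limb buds. Inside D, the band's contact with the 70 kb on its centromeric side was 1.16 ± 0.023 in Inv1 ESCs and 1.11 ± 0.025 in Inv1 limb buds, and with the 150 kb on its telomeric side 0.948 ± 0.014 in Inv1 ESCs and 1.21 ± 0.018 in Inv1 limb buds. The band thus had less contact with B, C, E and the telomeric side of D in the ESC map, but not with the directly adjoining centromeric side.

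Over all squares the flank of Inv1 ESCs correlated with that of Inv1 limb buds at r = 0.772 on log2 contact over expected, and Inv1 with WT limb buds at r = 0.927. Over the 250 bins at the centromeric end of the region, a stretch of the same size, r was 0.872 for Inv1 ESCs with Inv1 limb buds and 0.972 for Inv1 with WT limb buds. The squares share bins, and r also depends on how much structure a stretch has. Inv2, Inv3 and Inv4 limb buds correlated with WT at r = 0.765 to 0.779 as deposited and 0.916 to 0.924 with the WT share added back. The added share is itself part of the WT map, so the higher r is in part built in. Inv1 ESCs lay outside the range of the 6 limb bud libraries in 49.8% of flank squares, 258 above and 330 below, and in 51.1% of the squares at the centromeric end. With the WT share added back to Inv2, Inv3 and Inv4 it was 62.8% of flank squares and 65.9% at the centromeric end. Adding it back draws these maps toward WT, which can narrow the limb bud range.

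Contacts over more than 1000 kb made up 8.99% of the flank's inner contacts (those 20 kb or more apart) in Inv1 ESCs and, in limb buds, 10.8% for Inv1, 10.9% for Inv2, 11.3% for Inv3, 12.4% for Inv4, 10.9% for Inv1DelCTCF and 10.3% for WT. Contacts of the flank with 75.90 to 77.51 Mb, telomeric of the inverted segments, were 2.71% of all its contacts in Inv1 ESCs and, in limb buds, 1.77% for Inv1, 1.53% for Inv2, 1.58% for Inv3, 2.39% for Inv4, 1.81% for Inv1DelCTCF and 1.72% for WT. Inv1 ESCs had the smallest share of long contacts inside the flank and the largest share with that distant stretch, although Inv4 limb buds came near it in the share with that stretch.

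A scaled contact value with an enhancer region was also deposited by the authors, in limb buds of the 4 inversions and WT, for each of 103 genes. The last 13 genes of these tables, those listed after Farsb, follow the order of RefSeq genes on chromosome 1 except for Utp14b and Acsl3, which are swapped and share their values. The tables give no positions, so whether each gene lies in the flank is not stated. They are Mogat1, an enzyme of triacylglycerol synthesis, Utp14b, Acsl3, an acyl-CoA synthetase, Kcne4, an accessory subunit of potassium channels, Scg2, a secretogranin of neuroendocrine granules, Ap1s3, a subunit of the AP-1 clathrin adaptor, Wdfy1, Mrpl44 of the mitochondrial ribosome, Serpine2, a protease inhibitor, Fam124b, Cul3, the scaffold of a family of ubiquitin ligases, 1700016L21Rik and Dock10.

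In every table these 13 genes had a lower median contact with the enhancer region than all genes of the table together. In limb buds its median was 0.379 for Inv1, 0.016 for Inv2, 0.240 for Inv3, 0.451 for Inv4 and 0.174 for WT, against medians over all 103 genes of 1.01, 0.438, 1.23, 1.88 and 0.447 in the same order. The highest of the 13 were Acsl3 and Utp14b at 1.10 in Inv1 limb buds, Cul3 at 0.591 in Inv2, Mrpl44 at 1.49 in Inv3, Acsl3 and Utp14b at 1.23 in Inv4, and Fam124b at 0.542 in WT limb buds. Values at or below 0 were given for 3 genes of the Inv1 table, 6 of Inv2, 4 of Inv3, 6 of Inv4 and 2 of WT. Values below 0 were given for 5 genes of Inv2, 3 of Inv3 and 5 of Inv4, and for none of Inv1 or WT. Whether these 3 gene tables hold subtracted WT values, as read for the maps of the same libraries, was not tested. Their medians may thus not be a like measure to those of Inv1 and WT. How the tables were scaled is not stated, and no depth or error is given, so differences of this size between tables could not be set against an error.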

How the data were processed

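Capture Hi-C maps of 7 libraries were used, grouped by sample title. Reads were processed on build mm9 with Juicer and Bowtie2 2.2.6 (tools named in the submitters' processing notes). The deposited maps list, for pairs of 10 kb bins, a contact signal after the authors' Knight-Ruiz balancing; the maps of Inv2, Inv3 and Inv4 were deposited with negative values and are treated as scores; the values fit a library minus 0.423, 0.369 and 0.334 times the WT map, a step the labels do not describe. The gene tables hold a scaled contact score per gene, deposited by the authors with no scaling stated.

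From these values read pairs were recovered by fitting 1 factor per bin: 100% of low values in 4 maps and 99.78 to 99.83% in Inv2 to Inv4 were within 0.1 of a whole number. For Inv2 to Inv4 the WT share was first added back. Values not listed counted as 0. Contact was divided by its mean at the same distance in the whole map. Bins were dropped where they listed under 25% as many pairs as the median bin. With 1 library per condition, no difference was tested, and no p-values are given; counting standard errors and 95% intervals come from recovered read pairs and cover counting error only, since read pairs without molecular identifiers are not independent molecules. Intervals of differences treated the 2 maps as independent. For Inv2, Inv3 and Inv4 against WT they are too narrow, since those maps hold subtracted WT values. Read-pair recovery, the subtracted share, border calling and the stripe score were tested on simulated data. Border calling and the stripe score were tested there only on maps of even coverage without subtraction. The other measures were not tested in this way. Python 3.11.15, numpy 2.4.6 and pandas 2.3.3 were used.

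The flank, the lists and the tests were chosen with earlier results of these data known. The text names all WT borders, other borders without a WT border within 30 kb, the 4 highest stripe anchors on each side and the 5 highest focal pairs in WT and Inv1 ESCs, the 5 squares with the largest change each way on at least 50 read pairs, and the genes listed after Farsb. Alternatives covered the square size, depth minimum, tolerance, balancing, expectation, stripe range, pseudocount and WT share. Leaving out low-coverage bins, the WT share for borders, and the expectation of the flank for squares were added after seeing the data.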

Additional observations from a re-analysis of the deposited data

How the results depend on the processing

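With 1 library per condition, all of these are values without a test, and counting errors were larger in the 3 subtracted maps than in the others. No paired analysis was possible because each condition had 1 library. Borders kept their counts within 1.5 times under 100 and 300 kb squares, a depth minimum of 0.4, a tolerance of 50 kb, the WT share added back and the removal of low-coverage bins. The share of WT borders found in a map did change with the size of the square, as given above. Leaving out low-coverage bins also lowered it for Inv3 limb buds, to 3 of 4. Read pairs without balancing gave 7 borders in WT. Inv1 ESCs held 4 of these, Inv1DelCTCF limb buds 5, both Inv1 and Inv3 limb buds 6, and both Inv2 and Inv4 limb buds 7. The log2 ratio of contact within over between neighbouring domains without balancing was 0.20 in Inv1 ESCs and, in limb buds, 0.43 for Inv1, 0.41 for Inv2, 0.42 for Inv3, 0.38 for Inv4, 0.45 for Inv1DelCTCF and 0.41 for WT, so Inv1 ESCs stayed lowest; an expectation from the flank alone, low-coverage bins left out and the WT share moved it by less than the counting interval. The stripe score at 78.72 Mb over 100 to 600 kb was 0.36 in Inv1 ESCs and, in limb buds, 0.40 for Inv1, 0.49 for Inv2, 0.48 for Inv3, 0.27 for Inv4, 0.56 for Inv1DelCTCF and 0.40 for WT, so Inv4 and not Inv1 ESCs was lowest over this range; against all bins at the same distance it was 1.17, 1.38, 1.47, 1.51, 1.26, 1.43 and 1.35 in the same order. Map similarity in 100 kb squares was r = 0.83 for Inv1 ESCs with Inv1 limb buds and, with WT, 0.796 for Inv1 ESCs, 0.969 for Inv1, 0.907 for Inv2, 0.917 for Inv3, 0.908 for Inv4 and 0.973 for Inv1DelCTCF. In 50 kb squares similarity with WT was 0.77, 0.78 and 0.77 in Inv2, Inv3 and Inv4 as deposited. With the WT share added back it was 0.924, 0.923 and 0.916 in these squares. Squares past 1.5-fold depended most on the settings. With a pseudocount of 0.1 they were 8.22% of flank squares in Inv1 ESCs against Inv1 limb buds and, against WT, 0.932% for Inv1, 9.07% for Inv2, 10.25% for Inv3, 9.24% for Inv4 and 0.763% for Inv1DelCTCF. In 100 kb squares 0% passed in Inv1 ESCs against Inv1 limb buds and 0% in Inv1, Inv3, Inv4 and Inv1DelCTCF, and 1.03% in Inv2. With the WT share added back 0.254%, 0.424% and 0.339% passed in Inv2, Inv3 and Inv4, and without low-coverage bins 0% in Inv1 and 0% in Inv1DelCTCF. With the expectation from the flank alone 1.02% passed in Inv1 ESCs against Inv1 limb buds and, against WT, 0% for Inv1, 3.14% for Inv2 and 2.29% for Inv4. The log2 difference of Inv1 ESCs from Inv1 limb buds in the contact of A with E turned to 0.024 under that expectation. Against all bins at the same distance the centromeric stripe scores turned negative at 78.66 Mb, with -0.54 in Inv1 ESCs and, in limb buds, -0.47 for Inv1, -0.46 for Inv2, -0.44 for Inv3, -0.43 for Inv4, -0.47 for Inv1DelCTCF and -0.52 for WT, and at 78.67 Mb, with -0.52 in Inv1 ESCs and, in limb buds, -0.49 for Inv1, -0.54 for Inv2, -0.42 for Inv3, -0.40 for Inv4, -0.50 for Inv1DelCTCF and -0.57 for WT. The cause of these shifts was not tested.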
